A study of Sus scrofa with 4 samples.

Results

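Chemokines, interleukins and genes of the NF-κB pathway were followed as 1 module in pig ovary. A gene was a member when its symbol in the authors' table began with CCL or CXCL and a digit, or was one of 23 named cytokine and NF-κB genes, and when its counts summed over all libraries reached 10. The table held 44 rows with such a symbol, and 37 of its 22309 rows were members, 17 of them chemokines. Members were thus chosen by symbol and by the summed count, a measured value that did not use the genotype. Just outside the limit stood CCL17 with 7 counts, all in WT replicate 1, and just inside it CXCL11 with 19. The other rows left out were CCL3L1 with 6 counts, CCL22 and CSF2 with 4 each, CCL1 with 2, and CCL27 and CCL16 with 0. IL1B and IL1RN, also named in the rule, had no row under their symbol.

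The leptin overexpression group held 2 ovary libraries of sows from the F2 generation of crosses between Duroc/Landrace/Yorkshire sows and males cloned from a single leptin-overexpressing pig, so that the transgene descends from 1 founder; carriers were picked by PCR and immunoblot, among other assays. The WT group held 2 ovary libraries of control sows. All 4 samples were taken in diestrus, the luteal part of the cycle, and poly(A) RNA was sequenced. The sources used here give neither the promoter of the transgene nor the age of the animals, and they do not say whether each library of a genotype stands for its own animal. Any p-value below therefore reflects the scatter among these 4 libraries alone, and that scatter may be technical.

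Chemokines are small secreted proteins that draw leukocytes along a gradient through G-protein-coupled receptors, and the spacing of their first cysteines names the CC and CXC classes. NF-κB is a family of dimeric transcription factors held in the cytoplasm by IκB proteins. Stimuli such as IL1 or TNF lead to loss of IκB, and the freed dimers switch on chemokines, adhesion molecules and their own inhibitors. In the ovary these genes are known from ovulation, an inflammation-like event, and from the entry of leukocytes into the regressing corpus luteum.

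LEP had 55 and 124 counts in leptin overexpression and 0 and 3 in WT. These counts do not tell transcripts of the transgene from those of the animal's own gene. Total counts per library ran from 16493113 to 16797511, so that the 3 counts up to which a gene at 0 may still reach equalled 0.136 to 0.224 CPM (TMM-scaled counts divided by library size, the unit of all levels below unless FPKM is named). Intervals and floors cover counting error only. The 6 luteal marker genes, led by STAR, summed to 41046 and 44988 CPM in leptin overexpression and to 19805 and 43725 CPM in WT. WT replicate 1 stood lowest and the other 3 libraries close together. In bulk RNA fewer cells of a type and less RNA per cell cannot be told apart. The members took 0.0692% and 0.0468% of unscaled counts in leptin overexpression and 0.0758% and 0.0899% in WT. Exact binomial 95% intervals were 0.0457% to 0.0478% for the lowest and 0.0884% to 0.0913% for the highest. In TMM-scaled CPM the members summed to 747.5 and 578.3 in leptin overexpression and 567.0 and 900.1 in WT. On that scale the groups overlapped, so the order of the groups depends on the scaling.

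CCL5, CCL4, CCL19, CCL28 and CXCL14 were lower in both leptin overexpression libraries than in either WT library. CCL14 and, by a bare margin, CCL11 were higher, and the other 10 chemokines overlapped between the genotypes. Log2 fold changes of the 5 NF-κB subunits lay between -0.47 and 0.45. Of the 37 members, 34 passed the filter on low counts and were tested over all genes, and 0 passed the threshold of 0.05 in edgeR's quasi-likelihood test with Benjamini-Hochberg adjustment. Over all 13937 tested genes 0.0287% passed. CXCL8, CXCL11 and IL1A were not tested. CCL28 and IL10 passed the filter through the WT libraries alone. Among the tested members 11 had a positive log2 fold change (leptin overexpression minus WT) and 23 a negative one, beside 49.3% and 50.7% of all tested genes. Their median log2 fold change was -0.26, against -0.01 for all tested genes. Without WT replicate 2 the median of the members was 0.05, and 18 of the 34 were then positive.

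At an unadjusted edgeR p under 0.05 stood 6 lower members, CCL28, CXCL14, CCL5, CCL4, CCL19 and CSF1, and 1 higher member, CCL14. Of these, CCL28 had passed the filter on low counts through the WT libraries alone. The background for that limit was 5.32% of tested genes lower and 4.04% higher. DESeq2 called 2 members, CCL28 and CXCL14, both lower, where it called 1.48% of genes lower and 0.711% higher; limma-voom called 0. In CPM, 11 of the 37 members had groups that did not overlap with leptin overexpression lower, against 23.9% of rows with at least 10 summed counts, and 6 had leptin overexpression higher, against 20.8%. These shares lie near the background. In the authors' FPKM (fragments scaled to length and depth, with no TMM factor) the same counts were 17 and 2, beside 39.1% and 6.89% of rows, so the split between lower and higher depends on the scaling.

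**Figure D1:**
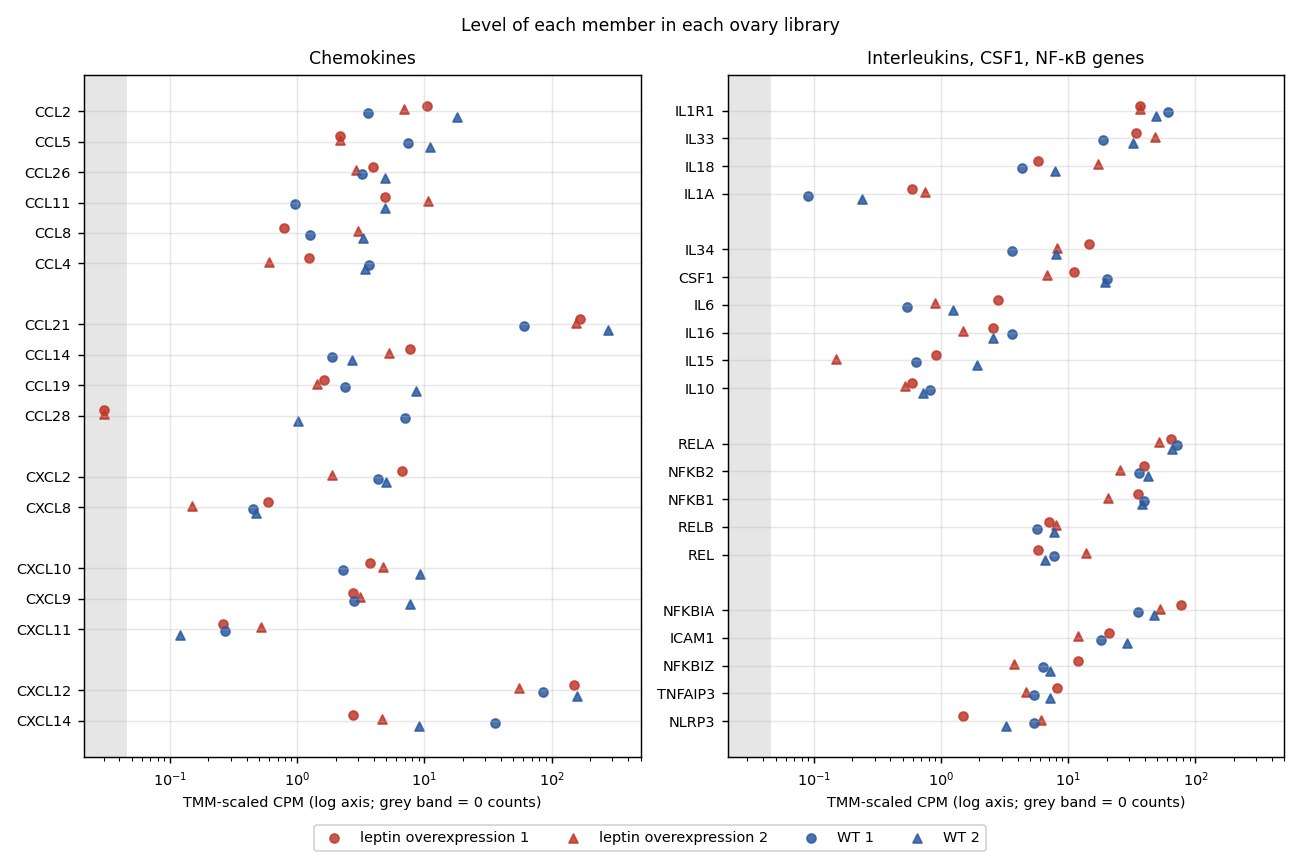
TMM-scaled CPM (log axis) of the 37 members in the 2 leptin overexpression libraries (red) and the 2 WT libraries (blue), 1 point per library, with members set in blocks by role and by mean FPKM. CCL21 and CXCL12 lie highest among the chemokines, and CCL28 is at 0 in both leptin overexpression libraries. The NF-κB subunits run from 5.71 CPM (RELB) to 72.2 CPM (RELA), both in WT replicate 1.

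Among the inflammatory CC chemokines, CCL5 and CCL4 were lower in both leptin overexpression libraries. CCL11 was higher in CPM by a bare margin. CCL5 (RANTES), a chemokine made by T and NK cells, was at 2.15 and 2.16 CPM in leptin overexpression and at 7.43 and 11 CPM in WT. The groups were well apart, and the leptin overexpression libraries were almost equal. Its log2 fold change was -2.09 (SE 0.55), a 4.26-fold lower level, with edgeR adjusted p = 0.269. It stayed between -2.37 and -1.81 when any library was left out, and DESeq2 gave an adjusted p of 0.0569.

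CCL4, an attractant of monocytes and T cells, was at 1.24 and 0.597 CPM in leptin overexpression and at 3.67 and 3.40 CPM in WT with a log2 fold change of -1.93 (SE 0.77) and an adjusted p of 0.509 in edgeR. The groups did not overlap, and the log2 fold change ran from -2.54 without leptin overexpression replicate 1 to -1.49 without leptin overexpression replicate 2. One of its estimated counts was not a whole number, so some fragments were divided with another row, as happens among near-identical CC chemokine genes, and its level is uncertain to that extent. CCR1, a receptor of CCL5, was at 5.09 and 6.34 CPM in leptin overexpression against 21.0 and 12.8 CPM in WT.

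CCL11 (eotaxin), which attracts eosinophils, was at 4.89 and 10.7 CPM in leptin overexpression and at 0.952 and 4.89 CPM in WT. Leptin overexpression replicate 1 and WT replicate 2 met at the same level to 3 digits, so the groups touch. In deposited FPKM they overlapped, at 3.4 and 6.48 FPKM in leptin overexpression and 0.96 and 3.66 FPKM in WT. The log2 fold change was 1.42 (SE 0.81, edgeR adjusted p = 0.596), but 2.99 without WT replicate 2, where it passed (edgeR adjusted p = 0.0351), and 0.64 without WT replicate 1. A fit without a WT library holds none of the spread within WT.

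CCL2 (MCP-1), the main attractant of monocytes, was the most abundant of these chemokines, with a mean of 12.5 FPKM. It was at 10.4 and 6.87 CPM in leptin overexpression and at 3.58 and 17.9 CPM in WT. Both leptin overexpression libraries fell between the WT libraries, and the sign of the log2 fold change (-0.31, SE 0.71) turned to 1.25 without WT replicate 2. CCL26 was at 3.91 and 2.91 CPM in leptin overexpression and at 3.22 and 4.89 CPM in WT, and CCL8 ran from 0.783 to 2.99 CPM in leptin overexpression and from 1.27 to 3.28 CPM in WT. Neither separated the genotypes. In RefSeq (Sscrofa11.1) CCL1, CCL8, CCL11 and CCL2 lie in that order with 0 genes between them; of these direct neighbours CCL11 had its highest value in leptin overexpression replicate 2, while CCL8 and CCL2 had theirs in WT replicate 2.

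The homeostatic CC chemokines held the most abundant member, CCL21, and the member with the lowest log2 fold change, CCL28. CCL21, which guides CCR7-bearing lymphocytes and dendritic cells and is made by lymphatic endothelium, averaged 293.8 FPKM and gave 10.6% to 30.7% of all member counts in a library. It was at 168 and 156 CPM in leptin overexpression and at 60.1 and 277 CPM in WT. The leptin overexpression libraries were alike and lay between the WT libraries, which differed more than 4-fold. Its log2 fold change of -0.06 (SE 0.65) became 1.41 without WT replicate 2 and -0.79 without WT replicate 1.

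CCL19, the other CCR7 ligand and the direct neighbour of CCL21 in RefSeq, was at 1.63 and 1.42 CPM in leptin overexpression and at 2.36 and 8.64 CPM in WT. The groups did not overlap, though WT replicate 1 stood close to leptin overexpression . The log2 fold change was -1.84 (SE 0.78), at an adjusted p of 0.524 in edgeR, and -0.65 when WT replicate 2 was left out. CCR7 was at 1.76 and 0.821 CPM in leptin overexpression and at 0.725 and 1.13 CPM in WT, so the receptor of both was scarce in every library. CCL14, a ligand of CCR1, was at 7.63 and 5.30 CPM in leptin overexpression and at 1.86 and 2.68 CPM in WT. It was the member with the highest log2 fold change, 1.51 (SE 0.60, edgeR adjusted p = 0.509), and the groups did not overlap; leaving out any library kept it between 1.24 and 1.77.

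CCL28 and CXCL14, both chemokines of epithelia, had the lowest log2 fold changes. CCL28, a mucosal chemokine that attracts plasma cells through CCR10, had 0 counts in both leptin overexpression libraries and 154 and 17 counts in WT, or 6.98 and 1.01 CPM. Against a floor of 3 counts over the group it was at least 42.2-fold lower in leptin overexpression. That bound rests mostly on WT replicate 1: it was 9.71-fold without WT replicate 1 and 66.8-fold without WT replicate 2. The edgeR adjusted p was 0.222, against 8.78e-04 by DESeq2. Without the filter on low counts edgeR's adjusted p was 0.0019. CCL28 passed that filter through the WT libraries alone, where it was high, so these p-values are not taken as support.

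CXCL14, an epithelial and stromal chemokine, was at 2.74 and 4.63 CPM in leptin overexpression and at 36.0 and 9.12 CPM in WT. The groups did not overlap, but the WT libraries differed 3.95-fold from each other. Its log2 fold change was -2.62 (SE 0.68), or 6.14-fold lower, with edgeR adjusted p = 0.266 and DESeq2 adjusted p = 0.00898. Leaving out WT replicate 1 gave -1.33, and leaving out WT replicate 2 gave -3.32.

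Epithelial markers were measured beside both chemokines. Of 7 measured markers 6 had groups that did not overlap with leptin overexpression lower, beside 23.9% of all rows. The 7 summed to 6.39 and 68.4 CPM in leptin overexpression and 521.8 and 279.9 CPM in WT. EPCAM gave most of the sum in leptin overexpression replicate 2. The oviductal glycoprotein OVGP1 led the list with 0.0652 and 1.19 CPM in leptin overexpression and 316 and 183 CPM in WT. KRT18 and FOXJ1 were at 0 in leptin overexpression replicate 1. EPCAM was the exception, at 2.54 and 57.1 CPM in leptin overexpression and 33.8 and 7.75 CPM in WT. CCL28, CXCL14 and 5 of the 7 markers were highest in WT replicate 1, while WFDC2 was highest in WT replicate 2 and EPCAM in leptin overexpression replicate 2. The part of these cells in the chemokine values was not tested.

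**Figure D2:**
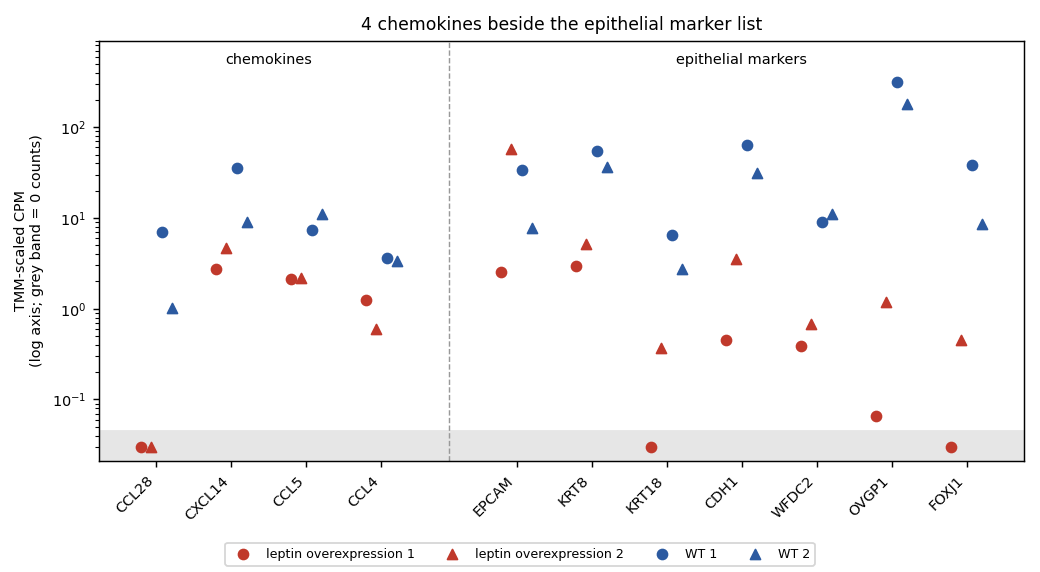
TMM-scaled CPM (log axis, grey band for 0 counts) of 4 chemokines and 7 epithelial markers, with leptin overexpression libraries in red and WT libraries in blue. CCL28 and CXCL14 lie lower in both leptin overexpression libraries, as do all markers but EPCAM; CCL5 and CCL4 also lie lower, at 0.597 to 2.16 CPM in leptin overexpression.

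CXCL12, which holds CXCR4-bearing cells in stroma and around vessels, was the second chemokine by level, with a mean of 38.4 FPKM. It was at 149 and 55.6 CPM in leptin overexpression and at 84.9 and 158 CPM in WT, so the groups overlapped, at a log2 fold change of -0.24 (SE 0.53) and an adjusted p of 0.883 in edgeR. The sum of 8 endothelial markers had its lowest value, 440.9 CPM, in the same library, leptin overexpression replicate 2, and its highest, 1403 CPM, in the same library, WT replicate 2. The 7 stroma markers went another way, at 11837 and 7525 CPM in leptin overexpression and 6965 and 6512 CPM in WT. Of these 7, 2 were apart with leptin overexpression higher and 0 lower, beside 20.8% and 23.9% of all rows. The part of either list in the values of CXCL12 or CXCL14 was not tested.

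The receptor CXCR4 differed more than its ligand. It was at 253 and 581 CPM in leptin overexpression and at 36.6 and 82.9 CPM in WT. Each leptin overexpression library was above both WT libraries, and the log2 fold change was 2.80 (SE 0.60), with edgeR adjusted p = 0.218 and DESeq2 adjusted p = 3.75e-05. It lay between 2.09 and 3.48 when any library was left out. ACKR3, the scavenging receptor of CXCL12, was at 22.0 and 8.73 CPM in leptin overexpression and at 8.07 and 38.3 CPM in WT, with no separation.

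The interferon-induced CXC chemokines, ligands of CXCR3 that attract activated T cells, were highest in WT replicate 2 where they were abundant enough to test. CXCL10 was at 3.72 and 4.70 CPM in leptin overexpression and at 2.27 and 9.18 CPM in WT. CXCL9 was at 2.74 and 3.13 CPM in leptin overexpression and at 2.81 and 7.69 CPM in WT. Both overlapped between the genotypes, and without WT replicate 2 their log2 fold changes were 0.86 and 0.04 in place of -0.44 and -0.83. CXCL11, which directly neighbours CXCL10 in RefSeq, had 2 to 7 counts per library.

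Of the CXC chemokines with the ELR motif, which attract neutrophils, CXCL2 was at 6.72 and 1.87 CPM in leptin overexpression and at 4.35 and 5.01 CPM in WT. CXCL8, the classic neutrophil chemokine, had 9 and 2 counts in leptin overexpression and 10 and 8 counts in WT. Neither separated the groups. The 7 neutrophil markers measured summed to 74.3 and 84.7 CPM in leptin overexpression and 99.3 and 114 CPM in WT, most of it FCGR3A, at 66.8 to 82.3 CPM. ELANE was at 0 in every library and MPO at 0 to 2 counts. All 5 tested markers had negative log2 fold changes, beside 50.7% of all tested genes, with a median of -1.39. CSF3R, which passed the filter through the WT libraries alone, was the 1 of 7 markers apart and lower, beside 23.9% of all rows. It was at 0.522 and 0.0746 CPM in leptin overexpression and 14.4 and 1.01 CPM in WT. S100A12 differed 25.3-fold between the WT libraries. The part of these cells in the CXCL2 and CXCL8 values was not tested.

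No IL1 family member passed the test. IL33, a nuclear alarmin stored in endothelium and stroma, was at 34.2 and 48.0 CPM in leptin overexpression and at 18.8 and 32 CPM in WT, and IL18, a cytokine matured by the inflammasome, at 5.81 and 17.2 CPM in leptin overexpression and 4.31 and 7.93 CPM in WT. The groups of IL33 did not overlap by a small margin and those of IL18 did overlap. In deposited FPKM the groups of IL33 met, at 10.63 FPKM in leptin overexpression replicate 1 and in WT replicate 2. IL1R1, the signalling receptor of IL1, was at 36.5 and 36.4 CPM in leptin overexpression and at 60.5 and 48.6 CPM in WT, with no overlap.

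Log2 fold changes were 0.70 (SE 0.41) for IL33, 0.91 (SE 0.61) for IL18 and -0.58 (SE 0.35) for IL1R1, with edgeR adjusted p of 0.601, 0.629 and 0.603. That of IL18 was -0.06 without leptin overexpression replicate 2. IL1A, an IL1R1 ligand, had 9 and 10 counts in leptin overexpression against 2 and 4 in WT and was too scarce to test. IL1R2, the decoy receptor of IL1, was at 132 and 34.9 CPM in leptin overexpression and at 16.6 and 50.8 CPM in WT, and IL1RAP, the shared accessory chain, at 9.78 and 21.7 CPM in leptin overexpression and 3.35 and 10.4 CPM in WT. Both overlapped between the groups. IL1RL1, the receptor of IL33, was at 0.913 and 1.12 CPM in leptin overexpression and 0.0907 and 0.715 CPM in WT, with a log2 fold change of 1.36 (SE 1.14), and IL18R1, a chain of the IL18 receptor, overlapped, with one of -0.13 (SE 0.90).

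The ligands of the macrophage receptor CSF1R had log2 fold changes of opposite sign, and neither passed the test. CSF1, the main growth factor of macrophages, was at 11.1 and 6.79 CPM in leptin overexpression and at 20.1 and 19.6 CPM in WT. IL34, the other ligand, was at 14.6 and 8.21 CPM in leptin overexpression and at 3.58 and 7.99 CPM in WT. CSF1 was clearly apart between the groups, whereas IL34 of leptin overexpression replicate 2 lay just above that of WT replicate 2. In deposited FPKM the groups of IL34 overlapped, at 8.17 and 3.68 FPKM in leptin overexpression and 2.88 and 4.99 FPKM in WT.

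CSF1 had a log2 fold change of -1.15 (SE 0.43, edgeR adjusted p = 0.482), and IL34 one of 0.98 (SE 0.56, edgeR adjusted p = 0.598). Leaving out any library kept CSF1 between -1.53 and -0.82 and IL34 between 0.50 and 1.65. Estimated counts of IL34 in 2 libraries were not whole, so a few fragments were divided with another row. CSF1R was at 39.1 and 17.9 CPM in leptin overexpression and at 62.9 and 44.1 CPM in WT. Of 11 macrophage markers, this receptor among them, 3 were apart with leptin overexpression lower and 1, MRC1, with it higher, beside 23.9% and 20.8% of all rows, and their sum was 463.8 and 387.2 CPM in leptin overexpression and 479.8 and 655.2 CPM in WT; their part in the values of CSF1 and IL34 was not tested.

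The other interleukins were scarce. IL6, an inflammatory cytokine that signals through gp130, was at 2.80 and 0.896 CPM in leptin overexpression and at 0.544 and 1.25 CPM in WT, and its log2 fold change of 1.05 (SE 0.94) was 0.02 without leptin overexpression replicate 1. IL16, an attractant of CD4-bearing cells, was at 2.54 and 1.49 CPM in leptin overexpression and at 3.58 and 2.56 CPM in WT, so that the groups practically touched. IL15, a T and NK cell survival factor, ranged from 2 to 32 counts and IL10, an anti-inflammatory cytokine, from 7 to 18 counts. None of these passed the test, and the groups of IL6 and IL15 overlapped.

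No NF-κB subunit passed the test, and with each library left out their log2 fold changes ran from -0.89 (NFKB1) to 0.95 (REL). RELA, the activating subunit of the classical pathway, was at 64.3 and 51.6 CPM in leptin overexpression and at 72.2 and 65.2 CPM in WT. NFKB1, its usual partner, was at 35.2 and 20.7 CPM in leptin overexpression and at 39.3 and 38.1 CPM in WT. Both were slightly lower in leptin overexpression, with no overlap and log2 fold changes of -0.25 (SE 0.35) and -0.47 (SE 0.40), at edgeR adjusted p of 0.822 and 0.69.

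NFKB2, the precursor of the alternative pathway, was at 39.2 and 25.5 CPM in leptin overexpression and at 35.7 and 42.6 CPM in WT. RELB, its partner, was at 7.04 and 7.99 CPM in leptin overexpression and at 5.71 and 7.75 CPM in WT. REL, the subunit best known from lymphocytes, ran from 5.81 to 13.7 CPM in leptin overexpression and from 6.56 to 7.71 CPM in WT. These 3 overlapped between the groups, and log2 fold changes of all 5 subunits ran from -0.47 to 0.45.

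Among the inhibitors and targets, NFKBIA was the 1 gene whose groups did not overlap in CPM. It encodes IκBα, the inhibitor that NF-κB itself induces, and was at 77.0 and 52.7 CPM in leptin overexpression and at 35.6 and 47.0 CPM in WT. The groups did not overlap, leptin overexpression being higher, with a log2 fold change of 0.65 (SE 0.38, edgeR adjusted p = 0.60) that lay between 0.37 and 0.91 when any library was left out. In the deposited FPKM, without TMM factors, NFKBIA was at 44.1 and 26.4 FPKM in leptin overexpression and at 29.5 and 29.1 FPKM in WT, and the groups overlapped.

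The other feedback inhibitors overlapped between the groups. TNFAIP3 (A20), a ubiquitin-editing enzyme, was at 8.15 and 4.63 CPM in leptin overexpression and at 5.39 and 7.15 CPM in WT, and NFKBIZ, a nuclear IκB, at 12 and 3.73 CPM in leptin overexpression and 6.35 and 7.21 CPM in WT. ICAM1, the adhesion molecule on which leukocytes arrest, was at 20.9 and 12 CPM in leptin overexpression and at 18.2 and 28.9 CPM in WT. NLRP3, the inflammasome sensor, was at 1.5 and 6.05 CPM in leptin overexpression and at 5.39 and 3.22 CPM in WT. In each of these 4 genes the spread within leptin overexpression was as wide as the step between the genotypes, and log2 fold changes ran from -0.52 to 0.22.

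**Figure D3:**
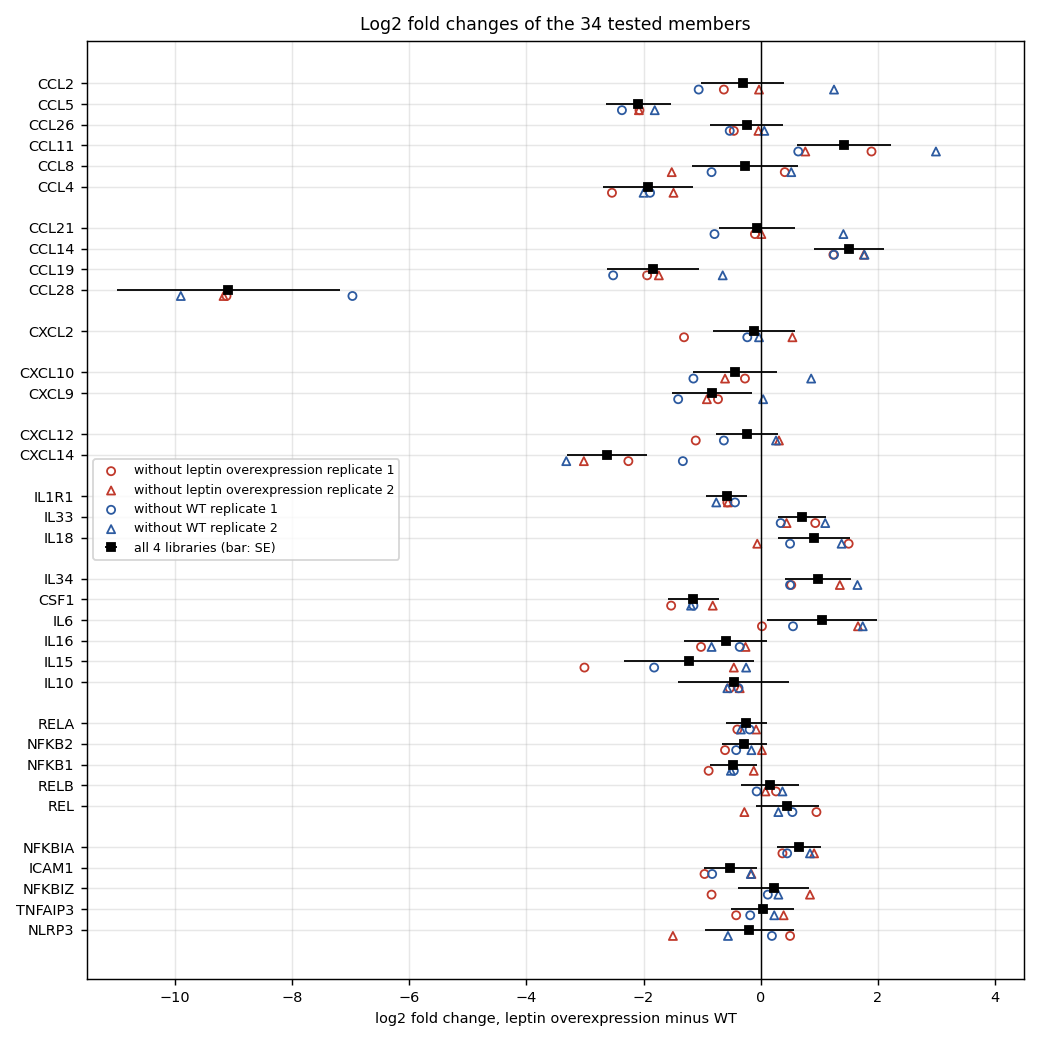
Log2 fold changes (leptin overexpression minus WT) of the 34 tested members with all libraries (black squares, bars for SE) and with each library left out (open symbols, red for a leptin overexpression library left out and blue for a WT library). CCL28 at -9.09 and CXCL14 at -2.62 lie farthest to the left, CCL14 at 1.51 farthest to the right, and the NF-κB subunits lie between -0.47 and 0.45.

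Ratios between 2 genes of the same library do not depend on scaling, and 10 of them, between ligands, receptors and inhibitors, were formed after the levels had been seen. No test was made, since 2 values against 2 cannot reach the threshold in an exact permutation test. In 5 of the 10 the groups did not overlap, and which way each pointed follows from the gene placed on top. Among single rows in CPM 20.8% were apart higher and 23.9% lower, and the share over all gene pairs was not computed. NFKBIA, RELA, CCL19, CXCR4, IL34 and CSF1, used in the 5 ratios that were apart, were already apart in CPM themselves. So were NFKB1, IL1R1 and CSF1R, used in ratios that overlapped. The count is therefore not read as a further result. The FPKM ratio of NFKBIA to RELA was 2.05 and 1.75 in leptin overexpression and 0.843 and 1.23 in WT. That of IL34 to CSF1 was 3.52 and 2.97 in leptin overexpression and 0.474 and 1.13 in WT, so IL34 exceeded CSF1 in both leptin overexpression libraries and in WT replicate 2.

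The ratio of CCL21 to CCL19 was 155 and 164 in leptin overexpression and 38.3 and 48.0 in WT. In WT, where the levels of CCL21 lay 4.60-fold apart, the ratios were close to each other; in leptin overexpression levels and ratios were both close. The ratio of CXCR4 to CXCL12 was 2.70 and 17.0 in leptin overexpression and 0.707 and 0.976 in WT. CXCL10 to CXCL9 was apart by less, at 2.39 and 2.65 in leptin overexpression and 1.42 and 2.11 in WT. The ratios of NFKB1 and NFKB2 to RELA, CSF1 to CSF1R, CCR7 to CCL21 and IL1R2 to IL1R1 overlapped between the groups.

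**Figure D4:**
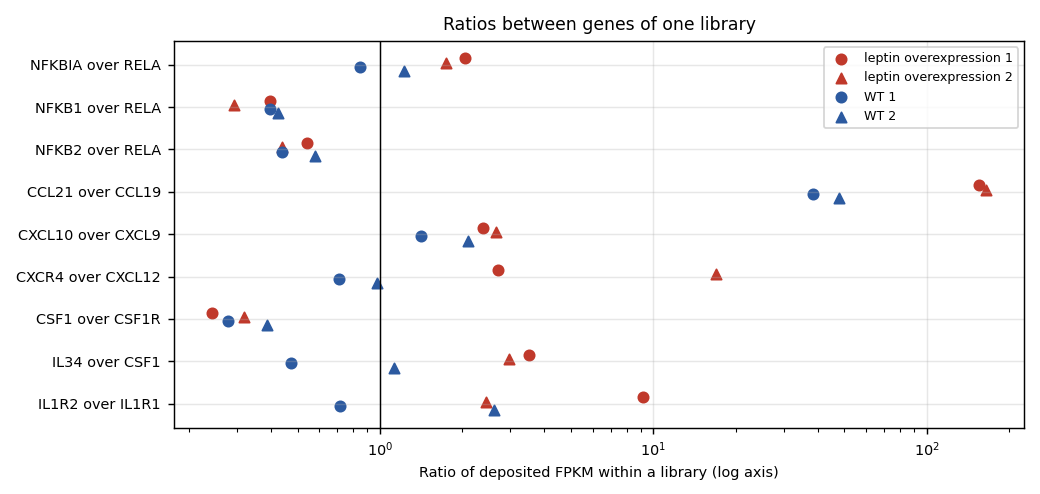
Ratio of deposited FPKM between pairs of genes within each library (log axis), with leptin overexpression in red and WT in blue, for 9 of the 10 ratios (CCR7 to CCL21, is not drawn). NFKBIA over RELA, CCL21 over CCL19, CXCL10 over CXCL9, CXCR4 over CXCL12 and IL34 over CSF1 show both leptin overexpression libraries to the right of both WT libraries.

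Several chemokines had a wide spread within WT. Of 32 members with a mean of at least 1 CPM, 5 differed 4-fold or more between the WT libraries, namely CCL21, CCL28, CCL2, CCL11 and CXCL10, beside 5.67% of rows at that level. NLRP3, which is no chemokine, was the 1 member that did so between the leptin overexpression libraries, beside 4.21% of rows. WT replicate 2 was the highest library for 9 of 17 chemokines and for 3 of the 20 other members, beside 22.3% of rows with at least 10 summed counts.

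Other genes of the pathway came from lists by function, written with an earlier account of the data known. Of 21 measured chemokine receptors 13 were tested and 0 passed in either direction; 3 had positive and 10 negative log2 fold changes, with a median of -0.59. CXCR4, described above, and ACKR3 were the most abundant. CXCR6, a receptor of T and NK cells, had 0 counts in both leptin overexpression libraries and 12 and 10 counts in WT.

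Of 15 cytokine receptor chains 14 were tested and 0 passed, with 5 positive and 9 negative values and a median of -0.44. IL6ST (gp130), the most abundant, was at 231 and 768 CPM in leptin overexpression and at 95.3 and 190 CPM in WT, and IL1R2 came second. IL2RG, the common γ chain of lymphocyte cytokines, which was named after its values were seen, was at 2.94 and 2.46 CPM in leptin overexpression and at 13.5 and 10 CPM in WT , a log2 fold change of -2.12 (SE 0.51) with adjusted p of 0.231 in edgeR and 0.0288 in DESeq2.

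Of 20 genes that signal to NF-κB 0 passed, 7 had positive and 13 negative values, and the median was -0.32. TNFRSF1A, the TNF receptor, was at 84.5 and 64.3 CPM in leptin overexpression and at 78.6 and 107 CPM in WT, and TAB2, an adaptor of the kinase TAK1, at 55.9 and 80.5 CPM in leptin overexpression and 43.0 and 46.4 CPM in WT. Of 9 further inhibitors and cofactors 0 passed (3 positive, 6 negative, median -0.11). TNIP1, a partner of A20, was at 65.7 and 63.7 CPM in leptin overexpression and at 72.6 and 71.9 CPM in WT, and OTULIN, a deubiquitinase, at 32.7 and 30.1 CPM in leptin overexpression and 30.9 and 36.6 CPM in WT.

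Of 14 measured further NF-κB targets 0 passed (4 positive, 10 negative, median -0.55). SOD2, the mitochondrial superoxide dismutase, was at 179 and 214 CPM in leptin overexpression and at 149 and 179 CPM in WT, and VCAM1, an adhesion molecule, at 103 and 70.4 CPM in leptin overexpression and 43.5 and 79.1 CPM in WT. The most abundant targets thus did not share the direction of the list's median. Of 4 measured inflammasome genes 0 passed (1 positive, 3 negative, median -0.32), with NEK7 at 54.5 and 73.2 CPM in leptin overexpression and 48.0 and 54.4 CPM in WT, and GSDMD at 9.91 and 16.2 CPM in leptin overexpression and 13.7 and 15.1 CPM in WT.

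Lymphocyte markers were measured beside CCL5, CCL4 and CCL19. Of 11 T and NK cell markers 5 were apart with leptin overexpression lower and 1, KLRK1, with it higher, beside 23.9% and 20.8% of all rows. Their sum was 51.5 and 52.8 CPM in leptin overexpression and 43.3 and 87.7 CPM in WT, and CD3G was at 0 in all libraries but WT replicate 1. Of 8 B and plasma cell markers 5 were apart with leptin overexpression lower, and their sum was 18.3 and 25.7 CPM in leptin overexpression and 35.0 and 66.0 CPM in WT. The part of these cells in the chemokine values was not tested.

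Rows of the same families without a symbol lay outside the rule and were looked up by their descriptions. The row described as CXCL13, the B cell attractant, had 53 and 3 counts in leptin overexpression and 18 and 1116 counts in WT, so that nearly all of it was in WT replicate 2. A row described as CXCL17-like, a mucosal chemokine, had 0 and 3 counts in leptin overexpression and 210 and 31.4 counts in WT (edgeR adjusted p = 0.225, DESeq2 0.0011), the same order of WT libraries as CCL28. That row passed the filter through the WT libraries alone. A second row described as CXCL17-like, not tested, had 0 and 1 counts in leptin overexpression and 59.25 and 1.65 counts in WT. WT counts of both rows were not whole, so some fragments were divided with another row. In each WT library the fractions of both rows complete each other (209.75 with 59.25, and 31.35 with 1.65). The rows are therefore not taken as separate observations. The row described as CXCL16, the ligand of CXCR6, was at 34 and 29.5 CPM in leptin overexpression and at 26.1 and 41.4 CPM in WT. The row described as IL1B had 3 and 7 counts in leptin overexpression and 0 and 8 counts in WT.

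Other such rows had higher values in leptin overexpression or none of a clear direction. The row described as CCL25, a gut and thymus chemokine, was apart and higher, at 1.96 and 2.02 CPM in leptin overexpression and 0.816 and 1.73 CPM in WT. CCL24, an eosinophil attractant, was at 1.43 and 1.79 CPM in leptin overexpression and 0.317 and 1.49 CPM in WT. CCL23 was at 0.717 and 1.79 CPM in leptin overexpression and 2.99 and 0.656 CPM in WT, and the row described as interleukin 15-like at 44.9 and 25.5 CPM in leptin overexpression and 48 and 27.4 CPM in WT. The last 3 overlapped between the genotypes.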

How the data were processed

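Poly(A) RNA of 4 pig ovary samples was sequenced, 2 per genotype. Per the file headers, the authors' table gives every gene an estimated count, not normalized, in each sample. FPKM, scaled to length and library size by the authors, stands beside it. In the submitters' processing notes stand, without roles, edgeR 3.32.0, RSEM, HISAT2, fastp 0.18.0, DESeq2, StringTie 1.3.1 and Bowtie2 2.2.8. Neither genome build nor strand setting is given in the sources used here, and overlapping or antisense genes may share reads. Columns named for controls were matched to WT samples of the same number.

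Counts were rounded, filtered with filterByExpr (13937 of 22309 rows kept), TMM-scaled (factors 0.926 and 0.809 in leptin overexpression, 1.34 and 0.999 in WT) and tested by genotype alone with the quasi-likelihood test of edgeR 4.0.16 in R 4.3.3 (limma 3.58.1 for the limma alternatives), adjusted by Benjamini-Hochberg over all tested genes. The SE is the absolute log2 fold change over the square root of F. All adjusted p are from edgeR unless DESeq2 (1.42.0) is named. The fit was also run on simulated counts with the same spread between replicates for every gene, a spread not estimated from these libraries. That run checks the code and does not show how many changes the test finds here.

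Members, lists, ratios and roles were chosen with earlier results of these data known. Values in every sample are given for members past the threshold, the 4 highest by mean FPKM per role, members with groups apart and an absolute log2 fold change of at least 1, and members whose libraries of a genotype differ 4-fold or more; of each list, members past the threshold or else the 2 highest by mean CPM. Other list genes, among them CCR1, CCR7, CXCR6, CSF1R and IL1RAP, were named after their values were seen. Of 192 list entries 176 matched a row, through the table's symbols (15153 genes), a gene name table (664) or RefSeq Sscrofa11.1 by NCBI gene identifier (2222). Alternatives were RLE and upper-quartile factors, other filters, DESeq2, limma-voom, limma-trend on log2(FPKM + 1) and log2(FPKM + 0.1), a replicate block and each library left out. Same-numbered samples did not deviate together (correlation -0.0995 across genes). Protein and promoter sequences were not used here.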

Additional observations from a re-analysis of the deposited data

How the results depend on the processing

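Under RLE factors and the filter of 1 CPM in 2 libraries 4 genes and 0 members passed, and no member that could be tested (34 and 32) changed sign. Genes past the threshold over all tested genes, 4 as reported, numbered 11 with upper-quartile factors, 252 with no filter, 323 by DESeq2, 1 by limma-voom, 464 and 487 by limma-trend on FPKM with pseudocounts of 1 and 0.1, and 23 with the replicate block; leaving out each library gave 0 to 681. Members past the threshold, 0 as reported, numbered 2 with no filter (CCL28 and CXCL14), 2 by DESeq2 (the same genes), 2 and 3 by limma-trend (CCL5 and CXCL14, and CCL28 with the smaller pseudocount), and 0 to 3 with each library left out, the 3 being CCL28, CXCL14 and CCL11 without WT replicate 2. The replicate block called 0 members. The samples share only a number, so the block is not taken as a pairing. The median log2 fold change of the members ran from -0.55 to 0.05 with each library left out, and was -0.69 by limma-trend with a pseudocount of 0.1. FPKM carry no TMM factor, and the median of all genes was then -0.3 and -0.4 with the 2 pseudocounts, and -0.11 with upper-quartile factors. Members with a positive value, 11 as reported, numbered 7 with either pseudocount and 10 to 18 with each library left out. Members with groups apart, counted on deposited FPKM as a choice made after seeing the data, numbered 17 lower and 2 higher in place of 11 and 6. The bound on the fold of CCL28 was also recomputed as a choice made after seeing the data, and was 9.71 to 66.8 with each WT library left out.

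Signs turned for genes with small values: by limma-voom CCL21 (0.30) and CCL2 (0.17); with the replicate block CCL21 (0.33), CCL2 (0.07) and TNFAIP3 (-0.01); with upper-quartile factors TNFAIP3 (-0.06); by limma-trend with pseudocounts of 1 and 0.1 NFKBIZ (-0.17 and -0.32), TNFAIP3 (-0.22 and -0.40), RELB (-0.19 and -0.24) and REL (-0.05 and -0.11). The cause was not tested. With each library left out, log2 fold changes that changed sign ran from -0.79 to 1.41 for CCL21, -1.06 to 1.25 for CCL2, -0.53 to 0.06 for CCL26, -1.52 to 0.52 for CCL8, -1.31 to 0.54 for CXCL2, -1.15 to 0.86 for CXCL10, -1.41 to 0.04 for CXCL9, -1.11 to 0.31 for CXCL12, -0.06 to 1.5 for IL18, -0.84 to 0.84 for NFKBIZ, -0.42 to 0.39 for TNFAIP3, -1.5 to 0.50 for NLRP3, -0.61 to 0.02 for NFKB2, -0.07 to 0.37 for RELB and -0.28 to 0.95 for REL. A group reduced to 1 library was assumed to vary like the other. Depth limits CXCL8, CXCL11, IL1A, IL10 and IL15, which had at most 32 counts in a library.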
